A study of Mus musculus with 12 samples.

Results

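The step from proerythroblast to basophilic erythroblast on a selenium-deficient diet was described from 6 of 12 arrays, the 3 titled as deficient basophilic erythroblasts against the 3 titled as deficient proerythroblasts. Male mice were fed a selenium-deficient or a selenium-adequate diet for 3 months and then given phenylhydrazine, which destroys red cells and drives erythropoiesis in the spleen. On day 3 both stages were sorted from the spleen, and 5 ng of total RNA per sample went onto an Affymetrix array that covers whole transcripts. The deficient groups thus share sex, diet, drug, day and organ and differ in the sorted stage, and 3 adequate proerythroblast and 3 adequate basophilic arrays serve for comparison. The labels name no strain, age, surface markers of the sort or number of animals per sample. Because they do not say that replicates came from separate mice, p-values measure only the spread between these samples, which may be technical.

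Values are log2 expression, and every difference is basophilic minus proerythroblast on that scale, with the standard error (SE) of a limma fit that pools the spread over the 4 groups. A gene is called, and is said to have risen or fallen, at a Benjamini-Hochberg adjusted p under 0.05 over all 20128 genes tested. Among the arrays of the step, basophilic replicate 2 stood apart, with correlations over all features of 0.916 and 0.910 with basophilic replicates 1 and 3, which correlated with each other at 0.986. Its array background, the median of 23 GC background features, was 4.70, against 3.73 and 3.75 in the other basophilic arrays and 3.31 to 3.47 in the proerythroblast arrays. All 23 of these features had a higher mean in the basophilic group, with a median difference of 0.65, while 5222 control features named neg had a median difference of -0.21, with 2085 of them higher. The part of these shifts in any gene's difference was not tested. The description of basophilic replicate 3 names proerythroblasts, against its title and its cell type label, which were followed here. It correlated at 0.969, 0.962 and 0.969 with the proerythroblast arrays, and basophilic replicate 1 at 0.9693, 0.9576 and 0.9665. Counts of calls in a list that moved by over 1.5 times without any single array are given without it, with arrays of the deficient diet meant unless the adequate diet is named.

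Erythroid precursors mature through proerythroblast, basophilic, polychromatic and orthochromatic stages before the nucleus is expelled. Over these divisions the cells shrink, the progenitor programme and ribosome production are switched off, hemoglobin and membrane proteins accumulate, and organelles are removed by autophagy. In the anaemic mouse the spleen makes many of these cells from stress progenitors that depend on BMP4, stem cell factor and erythropoietin. Selenium acts through selenoproteins, enzymes that carry selenocysteine at a UGA codon, several of which remove peroxides in red cells.

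Kit and Epb42 differed between the labelled stages in the direction the stage names give. Kit, the stem cell factor receptor of early erythroid cells, read 6.76, 6.88 and 7.12 in proerythroblast replicates 1, 2 and 3 and 6.31, 6.50 and 6.08 in basophilic replicates 1, 2 and 3. Epb42, which encodes the membrane protein 4.2 of maturing red cells, read 11.25, 10.58 and 11.13 in proerythroblasts and 12.10, 12.22 and 12.03 in basophilic erythroblasts. All 3 basophilic arrays, including replicate 3, lay below every proerythroblast array for Kit and above every one for Epb42. Arrays of the 2 stages did not overlap in 66.5% of all genes. Of 14 tested erythroid identity markers 6 rose, none fell (1 fell without basophilic replicate 1) and 8 were not called, and 2 rose under median centring and 9 under quantile normalization. Their log2 summed level was 14.99 to 15.10 in proerythroblasts and 15.33 to 15.61 in basophilic erythroblasts. Among 14 tested progenitor genes, Kit included, 4 fell, 2 rose and 8 were not called.

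With the spread pooled over the 4 groups, the step changed more genes than it left uncalled. Of 20128 genes, 11270 (56.0%) were called, 6258 (31.1%) higher and 5012 (24.9%) lower in basophilic erythroblasts. The falls were the larger: 1961 genes fell and 307 rose at least 2-fold, 102 fell and 16 rose at least 4-fold, and the median difference was -0.88 among falling and 0.57 among rising genes. The median of all genes tested was 0.08, and 12826 genes passed at an unadjusted p under 0.05. In 66.5% of genes the 3 arrays of each stage did not overlap (36.9% with the basophilic arrays higher, 29.6% lower), against 74.0% on the adequate diet, so a gap between the stages is common among all genes.

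The direction of a call went with brightness. In the dimmest of 3 equal groups of genes by mean level 3391 genes rose and 447 fell, in the middle group 2124 rose and 1607 fell, and in the brightest 743 rose and 2958 fell. Median differences were 0.42, 0.09 and -0.54. The share of calls that rose was 55.5% as deposited, 52.6% after quantile normalization, 41.6% after scale normalization, 31.9% after centring each array on its median and 31.4% with the stricter filter on dim genes (1994 higher, 4358 lower). Median centring moved the median of all genes to -0.16. The count of calls itself ranged from 4952 without proerythroblast replicate 3 to 12415 without basophilic replicate 3, was 6848 without proerythroblast replicate 1 and 8449 without basophilic replicate 2, and was 3049 (1078 higher, 1971 lower) without basophilic replicates 2 and 3. Calls that kept their direction and stayed past the threshold under 7 alternative settings and every left-out array numbered 4143, 1620 higher and 2523 lower, and these are called stable calls hereafter. With both left-out sets of doubtful basophilic arrays added (replicate 2 on both diets, and replicates 2 and 3 on the deficient diet) the number was 2398, 770 higher and 1628 lower.

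The lists below are read against the shares of rising and falling genes over all levels, 31.1% and 24.9%. Of the 6710 brightest genes 743 rose and 2958 fell, and no list was set against genes of like level. Counts for heme synthesis, progenitor genes, erythropoietin signalling, iron, selenoproteins and adhesion lay near the shares over all levels in at least one direction and in no case far above. Those sections therefore describe single members. Counts for S phase, ribosome biogenesis, ribosomal proteins, splicing, and folate and purine synthesis lay far above the share of falling genes.

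**Figure D1:**
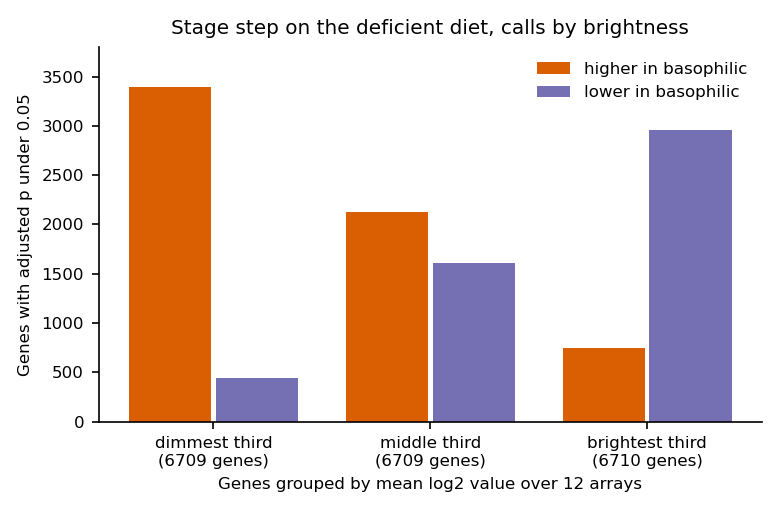
Number of genes called higher (orange bars) and lower (purple bars, side by side) in basophilic erythroblasts than in proerythroblasts on the deficient diet, for the dimmest, middle and brightest group of genes by mean log2 level over 12 arrays. Rising genes outnumber falling genes 3391 to 447 among the dimmest and falling genes outnumber rising ones 2958 to 743 among the brightest.

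Among the strongest rises with separated arrays were ubiquitin and ribosome-associated genes and the interferon-induced genes given further on. Ube2o, a ubiquitin enzyme that strips ribosomes and other proteins from reticulocytes, read 9.65, 9.64 and 9.83 in proerythroblasts and 11.61, 12.59 and 11.75 in basophilic erythroblasts. It rose by 2.28 (SE 0.27, adjusted p = 2.9e-04). Tcp11l2 read 7.99, 8.03 and 8.56 before and 10.34, 11.34 and 10.65 after the step, and rose by 2.58 (SE 0.31, adjusted p = 2.9e-04). Each basophilic array exceeded every proerythroblast array by more than 1 log2 unit for both genes, with basophilic replicate 2 the highest. Slfn14, a ribosome-associated endonuclease whose mutation causes thrombocytopenia in humans and anaemia in mice, read 9.73, 9.13 and 9.79 and then 11.61, 11.63 and 11.63, and rose by 2.07 (SE 0.26, adjusted p = 3.6e-04). Tbcel, a tubulin cofactor-like protein, rose by 2.25 (SE 0.23, adjusted p = 1.6e-04), and Cd36, a fatty acid and thrombospondin receptor, by 2.16 (SE 0.28, adjusted p = 4.5e-04).

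Among the strongest falls were a mitochondrial tRNA, nucleolar and translation genes, the immunoglobulin segment gene Igkv4-59 (by 2.75) and the neutrophil gene S100a8 given further on. The Igkv4-59 call was lost without basophilic replicate 2 or proerythroblast replicate 3 (adjusted p up to 0.072). mt-Tk, the mitochondrial lysine tRNA, read 8.85, 7.98 and 8.16 in proerythroblasts and 5.4, 3.60 and 5.23 in basophilic erythroblasts, and fell by 3.59 (SE 0.46, adjusted p = 4.6e-04). Nop58, a core protein of box C/D small nucleolar particles, read 10.64, 10.63 and 10.44 and then 8.68, 6.79 and 8.47. It fell by 2.59 (SE 0.38, adjusted p = 9.0e-04). Basophilic replicate 2 was lowest for both genes by more than 1 log2 unit, and the other two basophilic arrays also lay below every proerythroblast array. Uck2, a pyrimidine salvage kinase, fell by 2.49 (SE 0.54, adjusted p = 0.0066), and Abce1, which recycles ribosomes after termination, by 2.48 (SE 0.47, adjusted p = 0.0034).

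**Figure D2:**
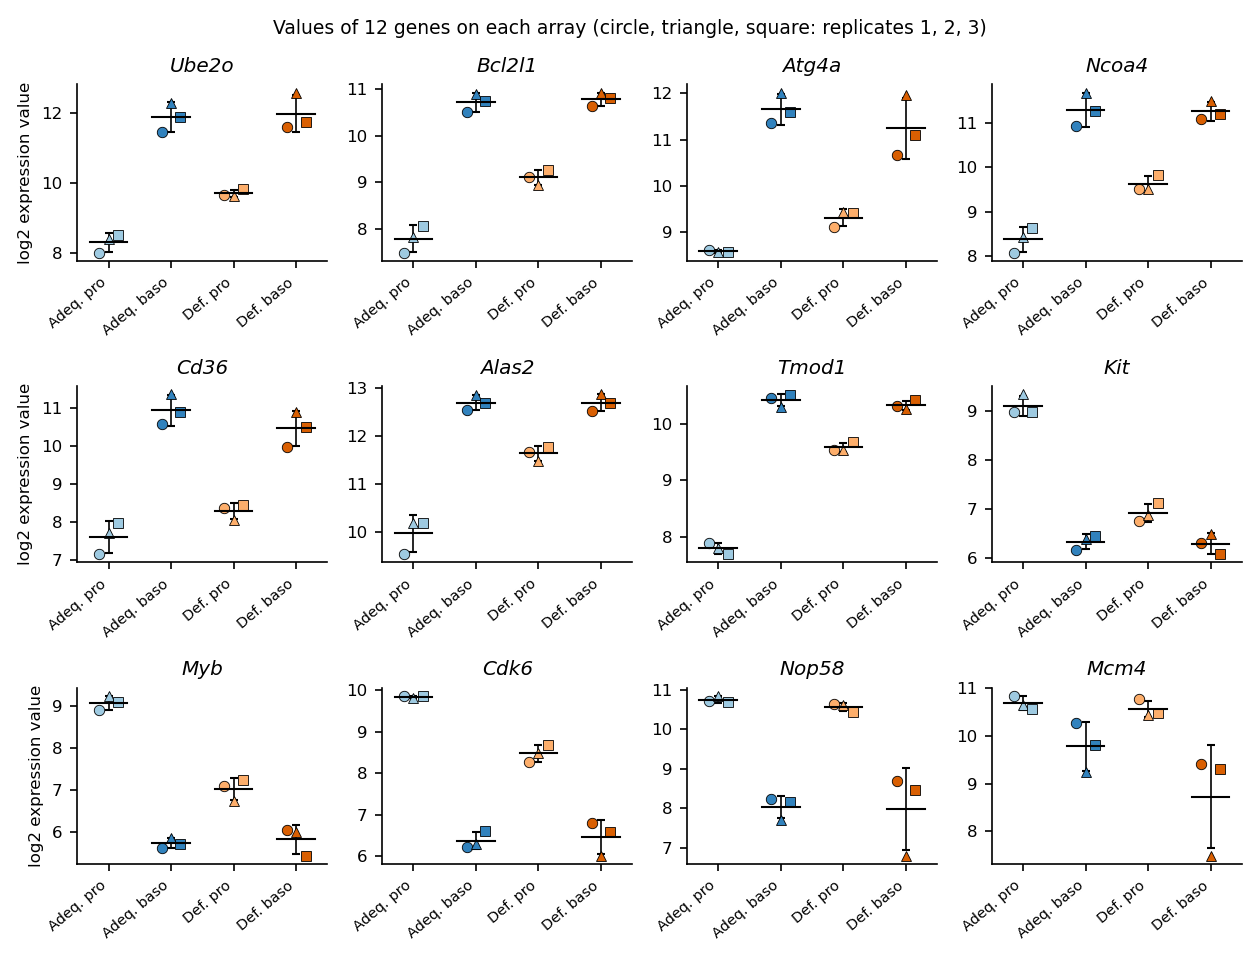
Log2 expression of 12 genes in the 4 groups of 3 arrays, adequate and deficient proerythroblasts and adequate and deficient basophilic erythroblasts, with the mean and SD as bars and replicates 1, 2 and 3 as circle, triangle and square. For each gene the 3 deficient basophilic arrays lie wholly above or wholly below the 3 deficient proerythroblast arrays, and replicate 2 (triangle) is often the farthest.

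Hemoglobin production needs heme, made from glycine and succinyl-CoA in mitochondria and cytosol, together with imported iron and globin chains. Of 16 tested heme genes 5 rose and 2 fell, with a median of 0.23. Alas2, the erythroid first and rate-limiting enzyme, read 11.67, 11.47 and 11.78 in proerythroblasts and 12.52, 12.88 and 12.69 in basophilic erythroblasts. It rose by 1.06 (SE 0.19, adjusted p = 0.0025), with no overlap between stages. Urod, which decarboxylates uroporphyrinogen, rose by 0.75 (SE 0.13, adjusted p = 0.0027). Fech, which inserts iron into protoporphyrin, read 12.09, 12.08 and 12.14 and then 12.68, 12.81 and 12.89, a rise of 0.69 (SE 0.15, adjusted p = 0.0059). Slc25a37, the mitochondrial iron importer mitoferrin 1, rose by 0.68 (SE 0.12, adjusted p = 0.0023). Glrx5, which assembles iron-sulfur clusters, rose by 0.55 (SE 0.15, adjusted p = 0.015), a call lost without proerythroblast replicate 3 (0.052).

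Flvcr1, a heme exporter, fell by 0.94 (SE 0.16, adjusted p = 0.0022), and Tmem14c, which moves protoporphyrinogen into the mitochondrial matrix, by 0.79 (SE 0.31, adjusted p = 0.045). The Tmem14c call was lost without any 1 of 7 arrays, basophilic replicate 2 and proerythroblast replicates 1 and 3 among them, with an adjusted p of up to 0.17. Alad, the second enzyme, read 12.31, 11.68 and 12.14 and then 12.49, 11.10 and 12.38, so that basophilic replicate 2 alone lay below all proerythroblast arrays. Its difference was -0.05 (SE 0.36), and 0.39 without that array. The list is the sum of unlike steps: 7 rose and 1 fell without basophilic replicate 2 (median 0.45), 8 rose and 1 fell after quantile normalization, and under median centring 4 rose and 2 fell with the median at -0.01.

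All 6 tested globin genes rose, and they were embryonic or minor ones. Hbq1a, a theta globin, read 9.60, 9.09 and 9.52 in proerythroblasts and 11.07, 10.98 and 11.22 in basophilic erythroblasts, a rise of 1.69 (SE 0.15, adjusted p = 1.2e-04). Its near copy Hbq1b rose by 1.58 (SE 0.16), but arrays may not tell these copies apart. The embryonic beta-like genes Hbb-bh1 and Hbb-y rose by 1.54 (SE 0.23, adjusted p = 0.001) and 1.36 (SE 0.30, adjusted p = 0.0077). These started low, at 4.71 to 5.37 for Hbb-bh1, in the dim range where most calls were rises. Hba-x rose by 0.74 (SE 0.17) and Hbb-bh2 by 0.56 (SE 0.16, adjusted p = 0.016, and 0.052 without proerythroblast replicate 2 or 3). The features of the adult globins name several genes each and were fitted apart. The 2 alpha features differed by 0.11 and 0.07 and the 2 beta features by 0.09 and 0.22, none past the threshold, at levels of 12.25 to 14.09 near the top of the array's range of 1.34 to 14.26.

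Membrane and skeleton genes rose in 8 of 20 cases and fell in 2, with a median of 0.34. Epb42, whose arrays are given above, rose by 1.13 (SE 0.18, adjusted p = 0.0013), and Mpp1, a palmitoylated scaffold protein, by 1.27 (SE 0.24, adjusted p = 0.0031). Tmod1, which caps the actin filaments of the skeleton, read 9.54, 9.54 and 9.67 and then 10.31, 10.26 and 10.42, and rose by 0.75 (SE 0.12, adjusted p = 0.0012). Its 3 arrays of each stage lay closer together than the step was large. Sptb (beta spectrin) rose by 0.63, Add2 (beta adducin) by 0.58, Ank1 (ankyrin) by 0.49 and Dmtn (dematin) by 0.67. Slc4a1, the anion exchanger band 3, read 13.07, 13.13 and 13.08 and then 13.48, 13.42 and 13.53, a rise of 0.38 (SE 0.13, adjusted p = 0.028) that lost its call without any 1 of 5 deficient arrays, all but basophilic replicate 2 (adjusted p up to 0.076). The calls of Ank1 and Dmtn also depended on single arrays, 2 for Ank1 and 4 for Dmtn, with an adjusted p of up to 0.071 and 0.085. Both falls were lost without any 1 of 8 arrays (any proerythroblast array of either diet, adequate basophilic replicate 3 or basophilic replicate 2), and 5 members rose without proerythroblast replicate 3. Under median centring 3 members rose, and under quantile or scale normalization 12 rose and none fell.

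Alas2 and Tmod1 rose together and, as given further on, rose less on the deficient than on the adequate diet. Fech, Slc25a37 and Slc4a1 of the same lists did so too, but had no upstream sequence in the promoter set used. The upstream sequences of Alas2 and Tmod1 are shown with the letters that the erythroid factors GATA1 and KLF1 are known to bind. RefSeq (GRCm38.p6) gives the 250 bases before the start of Alas2, on the plus strand, at chrX:150547167-150547416, and those of Tmod1, also on the plus strand, at chr4:46038972-46039221. Capitals mark the GATA-type letters AGATAA and the CACCC letters on either strand, read 5′ to 3′.
Alas2: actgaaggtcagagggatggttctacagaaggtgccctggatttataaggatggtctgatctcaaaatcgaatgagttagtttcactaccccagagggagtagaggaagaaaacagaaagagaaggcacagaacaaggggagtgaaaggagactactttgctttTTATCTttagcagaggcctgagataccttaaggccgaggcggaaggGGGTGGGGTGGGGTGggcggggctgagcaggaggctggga
Tmod1: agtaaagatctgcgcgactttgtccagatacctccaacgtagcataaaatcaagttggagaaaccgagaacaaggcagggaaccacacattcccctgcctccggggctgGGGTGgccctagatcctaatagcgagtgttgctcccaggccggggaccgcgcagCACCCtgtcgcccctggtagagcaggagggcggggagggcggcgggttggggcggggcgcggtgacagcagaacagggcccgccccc
Alas2 had 1 GATA-type match, as TTATCT 86 bases upstream, and 3 CACCC matches on the other strand 40, 35 and 30 bases upstream. Tmod1 had no GATA-type match and 2 CACCC matches, 141 and 87 bases upstream. Of all 32851 promoters listed by RefSeq, 9.99% held the GATA-type letters and 52.0% the CACCC letters in these 250 bases. A match describes letters only.

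Of 20 erythroid regulators 8 rose and 3 fell (median 0.21), and 5 fell without basophilic replicate 1. Trim58, an erythroid ubiquitin ligase that targets dynein before enucleation, read 9.06, 8.57 and 9.04 and then 10.71, 10.48 and 10.94, and rose by 1.82 (SE 0.22, adjusted p = 3.0e-04). Foxo3, a transcription factor of antioxidant and maturation genes, read 9.13, 8.71 and 8.95 and then 10.17, 10.14 and 9.93, a rise of 1.15 (SE 0.15, adjusted p = 4.7e-04). No array of either stage overlapped the other stage for these genes. Mafk, a partner of NF-E2, rose by 0.92, the corepressor Cbfa2t3 by 0.84 and E2f2, which links cell cycle exit with maturation, by 0.70 (SE 0.14, adjusted p = 0.0047). Nfia, an erythroid lineage factor, read 7.70, 7.37 and 7.32 and then 6.18, 6.25 and 6.14, and fell by 1.27 (SE 0.17, adjusted p = 6.4e-04). Bcl11a, the repressor of fetal-type globin, fell by 1.24 (SE 0.31, adjusted p = 0.011), and Ldb1, the bridging factor of the GATA1 complex, by 0.58 (SE 0.14, adjusted p = 0.0095).

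The master regulators themselves were not called. Gata1 read 8.72, 8.53 and 8.66 and then 8.98, 8.33 and 8.99, a difference of 0.13 (SE 0.19, adjusted p = 0.57). Klf1 differed by -0.15 (SE 0.33) and Tal1 by 0.14 (SE 0.26). For all 3 genes basophilic replicate 2 was the lowest of the 6 arrays, and Gata1 and Tal1 turned negative (-0.11 and -0.10) under median centring and Klf1 positive (0.17) under quantile normalization.

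Of 14 tested progenitor genes 4 fell and 2 rose, at a median of -0.06. At most 1 rose without any 1 of 9 arrays, all but adequate basophilic replicate 2 and basophilic replicates 1 and 3. Cdk6, a D-cyclin kinase of early progenitors, read 8.28, 8.48 and 8.68 in proerythroblasts and 6.81, 6.01 and 6.59 in basophilic erythroblasts. It fell by 2.01 (SE 0.20, adjusted p = 1.5e-04). Myb, a transcription factor that keeps progenitors dividing, read 7.09, 6.74 and 7.25 and then 6.05, 6.0 and 5.43, and fell by 1.20 (SE 0.19, adjusted p = 0.0013). Every basophilic array lay under every proerythroblast array for both. Myc fell by 1.08 (SE 0.22, adjusted p = 0.0053). Kit fell by 0.62 (SE 0.16, adjusted p = 0.013), a call that went to 0.053 without proerythroblast replicate 3.

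Erythropoietin signals through JAK2 and STAT5 to keep erythroblasts alive. Of 20 genes of this pathway 4 rose and 5 fell (median -0.02), and 3 fell without proerythroblast replicate 1. Under quantile normalization 6 rose and 1 fell, under median centring 4 and 6, and in the fit of the 6 arrays alone 2 and 2. Bcl2l1, which encodes the survival protein BCL-XL, read 9.12, 8.94 and 9.26 and then 10.63, 10.91 and 10.82, and rose by 1.68 (SE 0.17, adjusted p = 1.6e-04). Its stages were more than 1 log2 unit apart in every pair of arrays. Feedback inhibitors Socs3 and Socs1 rose by 0.69 and 0.76 and the kinase Pim2 by 0.72, the Socs1 call being lost without proerythroblast replicate 3 (0.053). Stat5b fell by 0.96 (SE 0.16, adjusted p = 0.0018) and the phosphatase Ptpn6 by 0.75 (SE 0.19, adjusted p = 0.011).

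Among 16 tested genes of BMP and hedgehog signalling, the pathways of splenic stress progenitors, 7 rose and 4 fell (median 0.35). The falls were in receptors and effectors: Bmpr2, the type II receptor, by 1.16 (SE 0.19, adjusted p = 0.0015), Ptch1, the hedgehog receptor, by 0.76 (SE 0.17), Smad5 by 0.72 (SE 0.15) and Smad4 by 0.67 (SE 0.16), all stable calls. The 7 rises were 0.38 to 0.65 and included Smad1 (0.38), the inhibitor Smad6 (0.59, SE 0.14), the targets Id1 (0.53) and Id3 (0.55) and the ligand Ihh (0.65). Only Smad6 of the 7 rises was a stable call, and these genes were dim, as in Id3, which read 5.71, 5.71 and 5.70 and then 6.10, 6.59 and 6.08. In the fit of the 6 arrays alone 0 members rose and 3 fell, so the Smad6 call was lost there. Without proerythroblast replicate 3, 2 members rose, and without basophilic replicates 2 and 3, 1 rose and 1 fell.

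Iron genes rose in 6 of 20 cases and fell in 5 (median 0.18, and -0.06 under median centring), and 3 fell without basophilic replicate 2 or proerythroblast replicate 1 or 3. Ncoa4, the receptor that sends ferritin to autophagy, read 9.51, 9.50 and 9.82 and then 11.08, 11.48 and 11.20, and rose by 1.64 (SE 0.21, adjusted p = 4.3e-04). Iscu, the scaffold of iron-sulfur assembly, rose by 1.19 (SE 0.24, adjusted p = 0.0053) and Ftl1, the ferritin light chain, by 0.50 (SE 0.12, adjusted p = 0.011). The iron regulatory proteins fell, Aco1 (IRP1) by 1.14 (SE 0.17, adjusted p = 0.0011) and Ireb2 (IRP2) by 1.02 (SE 0.32, adjusted p = 0.021). Aco1 read 8.23, 8.17 and 8.03 and then 7.19, 6.80 and 7.03, without overlap. The Ireb2 call was lost without basophilic replicate 2, proerythroblast replicate 1 or proerythroblast replicate 3 (adjusted p up to 0.057). Exoc6, which returns transferrin receptor vesicles to the membrane, fell by 0.80 and the iron chaperone Pcbp2 by 0.61.

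**Figure D3:**
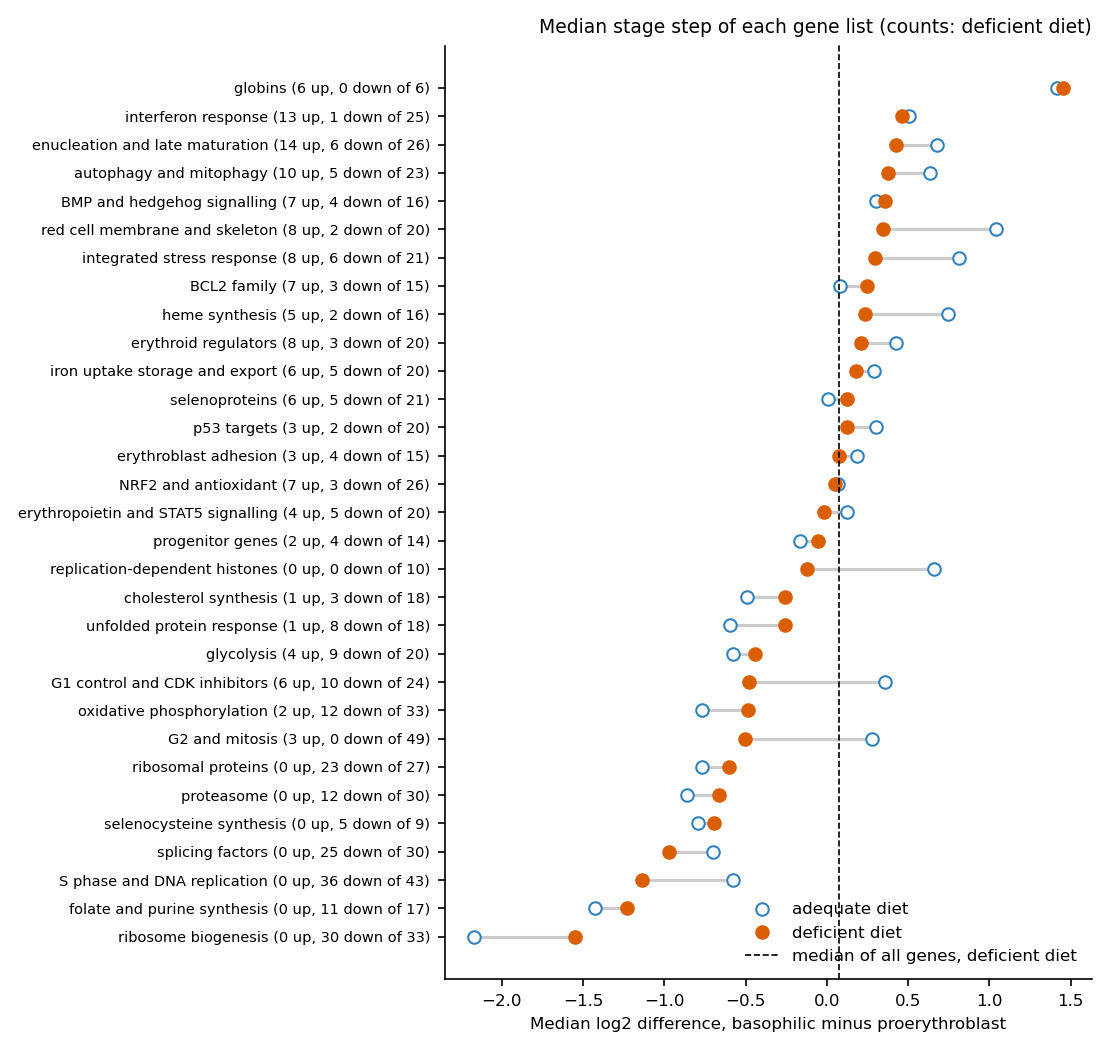
Median log2 difference, basophilic minus proerythroblast, of every gene list but the cell type markers on the adequate (open) and deficient (filled) diet. The median of all genes on the deficient diet (0.08) is a dashed line. Ribosome biogenesis lies lowest on both diets (-2.17 and -1.55), and the globin list lies at 1.41 and 1.45.

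DNA replication genes fell together on the deficient diet: 36 of 43 fell and none rose, and the median was -1.14 against 0.08 for all genes. Mcm4, a subunit of the replicative helicase, read 10.77, 10.45 and 10.49 and then 9.40, 7.48 and 9.30, and fell by 1.84 (SE 0.42, adjusted p = 0.0085). Rfc3, a subunit of the clamp loader, read 8.31, 7.74 and 8.05 and then 6.77, 6.08 and 6.86, and fell by 1.46 (SE 0.23, adjusted p = 0.0013). Basophilic replicate 2 was lowest for both genes, by nearly 2 log2 units for Mcm4, and the other basophilic arrays also stayed below every proerythroblast array. Mcm3 fell by 1.76, Mcm6 by 1.64, Mcm5 by 1.40 and Mcm2 by 1.10. Pcna, the sliding clamp, read 12.46, 12.10 and 12.28 and then 11.79, 10.47 and 11.80, and fell by 0.93 (SE 0.31, adjusted p = 0.029), a call lost without basophilic replicate 2 or proerythroblast replicate 1 or 3 (up to 0.084).

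The number of falls depended on single arrays. It was 19 without proerythroblast replicate 1 and 20 without proerythroblast replicate 3. Without basophilic replicate 2 it was 25, with the median at -0.75, and without basophilic replicates 2 and 3 together 9 fell, with a median of -0.70. On the adequate diet 9 of 43 fell at a median of -0.58, and no member passed limma's test of the difference between the diets, with 3 at an unadjusted p under 0.05. With the block described further on 3 passed (Rrm2, Tk1 and Ccne2, named after their values were seen). All 3 were negative (deficient minus adequate), and 0 of them had the smaller step on the deficient diet. Over the list this difference was below 0 in 39 members and above 0 in 4, with a median of -0.67 against 0.03 for all genes. It includes basophilic replicate 2, without which the median step on the deficient diet was -0.75.

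Genes of G2 and mitosis did not follow. Of 49 tested 3 rose and none fell, while the median was -0.51. Without basophilic replicate 3, 7 fell, without basophilic replicate 1, 3 fell, and without adequate basophilic replicate 2, 1 fell. Plk1, a mitotic kinase, read 11.60, 11.26 and 11.36 and then 11.45, 9.45 and 11.37, a difference of -0.65 (SE 0.48, adjusted p = 0.25), so basophilic replicates 1 and 3 stood among the proerythroblast arrays and replicate 2 far below. Without basophilic replicate 2 the list's median was 0.05. The 3 that rose were Pttg1, the securin that holds back chromatid separation, by 1.43 (SE 0.36, adjusted p = 0.011), Ube2c, a partner of the anaphase-promoting complex, by 0.73 (SE 0.14, adjusted p = 0.0031), and Cdc25b, a phosphatase that starts mitosis, by 0.54 (SE 0.15, adjusted p = 0.017, and up to 0.054 without proerythroblast replicate 1 or 3). Of 10 replication-dependent histone genes 0 were called by limma, and 0 passed at an unadjusted p under 0.05 (median -0.12), while 1 fell without basophilic replicate 1. On the adequate diet 5 of the 49 mitosis genes (median 0.28) and 3 of the 10 histone genes (median 0.66) rose, and 0 fell. The difference between the diets was below 0 in 49 of 49 (median -0.79) and 10 of 10 (median -0.98), basophilic replicate 2 included. In limma's test of it 1 and 0 passed, and with the block described further on 4 and 5.

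G1 regulators moved in both directions, with 6 of 24 rising and 10 falling. Mxd1, an antagonist of MYC, read 10.52, 10.20 and 10.39 and then 11.56, 11.79 and 11.68, a rise of 1.31 (SE 0.13, adjusted p = 1.6e-04). Mxi1, of the same family, rose by 0.83 (SE 0.12), and Cdkn1b, the CDK inhibitor p27, by 0.93 (SE 0.16, adjusted p = 0.0023). Cdk4, a kinase that drives G1, read 10.64, 9.82 and 10.25 and then 8.69, 7.74 and 8.23, and fell by 2.02 (SE 0.28, adjusted p = 7.1e-04). Its partner cyclin Ccnd2 fell by 1.79 (SE 0.28, adjusted p = 0.0013), E2f3 by 1.55 (SE 0.23, adjusted p = 8.6e-04) and Ccnd3 by 0.86 (SE 0.24, adjusted p = 0.016). The stages did not overlap for any of these genes, and all were stable calls. They were mostly picked for a small adjusted p, which favours both. Among all genes 66.5% did not overlap, and 4143 of 20128 were stable calls.

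Ribosome production fell widely. Of 33 tested genes of ribosome biogenesis 30 fell and none rose, 28 of the falls were stable calls, and the median was -1.55. Utp20, a large protein of the small subunit processome, read 7.53, 7.39 and 7.36 and then 5.56, 5.42 and 5.55, and fell by 1.92 (SE 0.12, adjusted p = 2.5e-05). The arrays of each stage lay far closer together than the stages did. Npm1, a nucleolar chaperone, read 12.02, 11.73 and 11.91 and then 10.52, 9.48 and 10.45, and fell by 1.74 (SE 0.24, adjusted p = 6.1e-04). Fbl (fibrillarin, which methylates ribosomal RNA) and Ncl (nucleolin) each fell by 1.85, Polr1b, a large subunit of RNA polymerase I, by 1.92 (SE 0.16) and Utp4 by 2.53 (SE 0.32). The count was 30 falls without basophilic replicate 2 and 26 without basophilic replicates 2 and 3, with medians of -1.40 and -1.34, and 1 member rose without basophilic replicate 3.

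The structural ribosomal proteins fell less. Of 27 that could be tested 23 fell and none rose, at a median of -0.60. Rpl12 fell by 1.19 (SE 0.27, adjusted p = 0.0083) and Rps18 by 0.99 (SE 0.17, adjusted p = 0.002). The number that fell was 11 after quantile normalization and 27 under median centring, 13 without proerythroblast replicate 1 or 3, and 8 without basophilic replicates 2 and 3. Several of these genes have near-identical pseudogenes that an array may not separate.

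Nucleotide supply moved with it. Of 17 genes of folate and purine synthesis 11 fell and none rose (median -1.23, 10 stable calls). Atic, which closes the purine ring, read 8.36, 7.88 and 8.17 and then 6.71, 6.53 and 6.51, and fell by 1.55 (SE 0.16, adjusted p = 1.6e-04). Mthfd1, a folate interconversion enzyme, fell by 1.85 (SE 0.31), Ppat, which commits purine synthesis, by 1.80 (SE 0.27) and Gart by 1.66 (SE 0.23). All basophilic arrays of Atic lay more than 1 log2 unit below the lowest proerythroblast array.

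Of 30 splicing factors 25 fell and none rose, at a median of -0.97. Hnrnpl, a splicing repressor, read 9.97, 10.07 and 9.88 and then 9.27, 9.11 and 9.31, and fell by 0.74 (SE 0.11, adjusted p = 0.0012). Sf3a3, a branch-site factor, fell by 1.72 (SE 0.42, adjusted p = 0.011). Proteasome subunits fell in 12 of 30 cases, none rising, as in Psmb3, which fell by 1.14 (SE 0.27), and Psmb2, by 0.97 (SE 0.24). Both counts depended on single arrays, and in the fit of the 6 arrays alone they were 8 and 1. Without proerythroblast replicate 1 there were 11 splicing and 2 proteasome falls, without proerythroblast replicate 3 there were 12 and 3, without basophilic replicate 2 there were 22 and 4, and without basophilic replicate 3 there were 27 and 21. A splicing gene rose without basophilic replicate 1 or 3 or adequate basophilic replicate 2, and a proteasome gene without basophilic replicate 1 or adequate basophilic replicate 2. Without basophilic replicates 2 and 3 there were 6 and 0 falls by limma (3 proteasome genes at an unadjusted p under 0.05).

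Mitochondrial and glycolytic genes each moved in both directions. Of 33 genes of oxidative phosphorylation 12 fell and 2 rose (median -0.49), and 4 fell without basophilic replicate 2 and 3 without proerythroblast replicate 1 or 3. In the fit of the 6 arrays alone 2 fell and 0 rose. Ndufb5 of complex I read 8.05, 7.67 and 7.81 and then 6.63, 6.46 and 6.54, and fell by 1.3 (SE 0.19, adjusted p = 8.9e-04). Sdhd of complex II fell by 1.32 (SE 0.19, adjusted p = 8.9e-04) and Cycs, cytochrome c, by 1.85 (SE 0.49, adjusted p = 0.014). Cox6a1 and Ndufa1 rose by 0.51 and 0.52, calls lost without single arrays: proerythroblast replicate 2 or 3 for both and basophilic replicate 2 for Ndufa1 (up to 0.062 and 0.11).

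Bpgm, which makes the 2,3-bisphosphoglycerate that lowers the oxygen affinity of hemoglobin, rose by 1.87 (SE 0.17, adjusted p = 1.3e-04), from 8.45, 8.31 and 8.54 to 10.12, 10.43 and 10.35. It ran against its own pathway: of 20 glycolysis genes 9 fell and 4 rose, 2 rising without proerythroblast replicate 2 or 3. Tpi1, triose phosphate isomerase, read 10.20, 9.98 and 9.98 and then 8.71, 8.27 and 8.27, and fell by 1.64 (SE 0.17, adjusted p = 1.7e-04). Pgk1 fell by 1.41, Pklr, the pyruvate kinase of red cells, by 1.29, Ldha by 1.17 and Gapdh by 0.72. Slc16a1, a lactate transporter, rose by 0.74 (SE 0.14, adjusted p = 0.0035). Of 18 cholesterol synthesis genes 1 rose and 3 fell, none of them a stable call. All 4 calls were lost without proerythroblast replicate 1 or 3, and the rise also without proerythroblast replicate 2. Without basophilic replicate 2 the rise was lost and 1 fell, and without basophilic replicate 3, 2 rose.

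Selenoprotein transcripts did not move as a set. Of 21 tested 6 rose and 5 fell, at a median of 0.12 (-0.12 under median centring, where 3 rose and 6 fell), and 2 fell without proerythroblast replicate 1 or 3. On the adequate diet 4 rose and 7 fell (median 0.01). In limma's test of the difference between the diets 0 members passed, and with the block described further on 2 did. Under quantile normalization 6 rose and 2 fell (median 0.18), and in the fit of the 6 arrays alone 2 rose and 1 fell. Txnrd2, the mitochondrial thioredoxin reductase, read 9.81, 9.19 and 9.67 in proerythroblasts and 10.65, 11.11 and 10.62 in basophilic erythroblasts, and rose by 1.24 (SE 0.19, adjusted p = 0.001). Selenok, a membrane protein of the endoplasmic reticulum, read 8.46, 7.97 and 8.39 and then 8.94, 9.66 and 9.07, and rose by 0.95 (SE 0.22, adjusted p = 0.0092). Both were separated in every array and stable. Gpx1, the abundant glutathione peroxidase of red cells, read 12.67, 12.12 and 12.62 and then 12.87, 13.17 and 12.93, a rise of 0.52 (SE 0.16, adjusted p = 0.022) that lost its call without basophilic replicate 2 or proerythroblast replicate 2 (up to 0.074). Selenot rose by 0.52 (SE 0.13, adjusted p = 0.012). Selenom rose by 0.64 and Selenon by 0.44, dim genes whose calls also depended on single arrays, basophilic replicate 2 among them (up to 0.063 and 0.11).

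Among the falling selenoproteins, Selenoh, a nucleolar protein, read 8.68, 8.38 and 8.50 and then 7.41, 7.64 and 7.95, and fell by 0.85 (SE 0.15, adjusted p = 0.0028). It was the stable call of the 5. Txnrd1, the cytosolic thioredoxin reductase, read 9.87, 10.11 and 9.79 and then 9.54, 7.78 and 9.37, and fell by 1.03 (SE 0.38, adjusted p = 0.039). Basophilic replicate 2 carried much of that difference, and the call was lost without it or without any proerythroblast array (up to 0.10). Selenos, of the degradation machinery of the endoplasmic reticulum, fell by 1.09 (SE 0.29, adjusted p = 0.013). Sephs2, which makes the selenium donor, fell by 0.85 and Selenoi, of phospholipid synthesis, by 0.60, and both calls were lost without proerythroblast replicate 1 or 3 (up to 0.062 and 0.073). Gpx4, the lipid peroxidase, read 8.49, 8.27 and 8.51 and then 8.83, 8.67 and 9.01, a difference of 0.41 (SE 0.17) at an adjusted p of 0.055. Selenow differed by 0.06 (SE 0.16) as deposited and by -0.18 under median centring.

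The machinery that makes and inserts selenocysteine fell in 5 of 9 tested genes and rose in none, at a median of -0.69. The adequate diet likewise gave 5 falls and 0 rises, at a median of -0.79. In limma's test of the difference between the diets 0 members passed, and its median over the list was 0.01. Sepsecs, which converts phosphoseryl-tRNA to selenocysteinyl-tRNA, read 8.02, 8.09 and 7.79 and then 6.91, 6.30 and 6.72, and fell by 1.32 (SE 0.26, adjusted p = 0.0041). Eefsec, the elongation factor of selenocysteine, read 8.14, 7.59 and 7.83 and then 6.98, 6.69 and 6.76, and fell by 1.04 (SE 0.17, adjusted p = 0.0017). Neither gene's stages overlapped. Pstk, the kinase before Sepsecs, fell by 0.69 (SE 0.15), Secisbp2, which binds the SECIS element, by 0.68 (SE 0.18) and Trnau1ap by 0.61 (SE 0.11). The 5 falls stood without basophilic replicate 2, and 3 stood without basophilic replicates 2 and 3.

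Of 26 tested members of the NRF2 and antioxidant list 7 rose and 3 fell (median 0.05, and -0.19 with 2 rises and 4 falls under median centring). There were 2 rises and 2 falls without proerythroblast replicate 2 or 3, 3 rises and 5 falls without basophilic replicate 3, and 4 rises and 3 falls without basophilic replicate 1. Cat, catalase, read 10.89, 10.65 and 11.11 and then 12.31, 12.91 and 12.39, and rose by 1.65 (SE 0.21, adjusted p = 3.9e-04). Its stages were separated by more than 1 log2 unit. Taldo1, of the pentose phosphate pathway, rose by 0.91 (SE 0.16, adjusted p = 0.0024). Srxn1, which repairs peroxiredoxins, and Nqo1 rose by 0.87 and 0.75, and for both the call was lost without any of several single arrays, basophilic replicates 1 and 3 included (up to 0.092 and 0.11). Gsta4 fell by 0.87 (SE 0.17) and Gsto1 by 0.53 (SE 0.12), glutathione transferases. Prdx4, a peroxiredoxin of the endoplasmic reticulum, fell by 1.67 (SE 0.57, adjusted p = 0.029), a call lost without any proerythroblast array (up to 0.074).

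**Figure D4:**
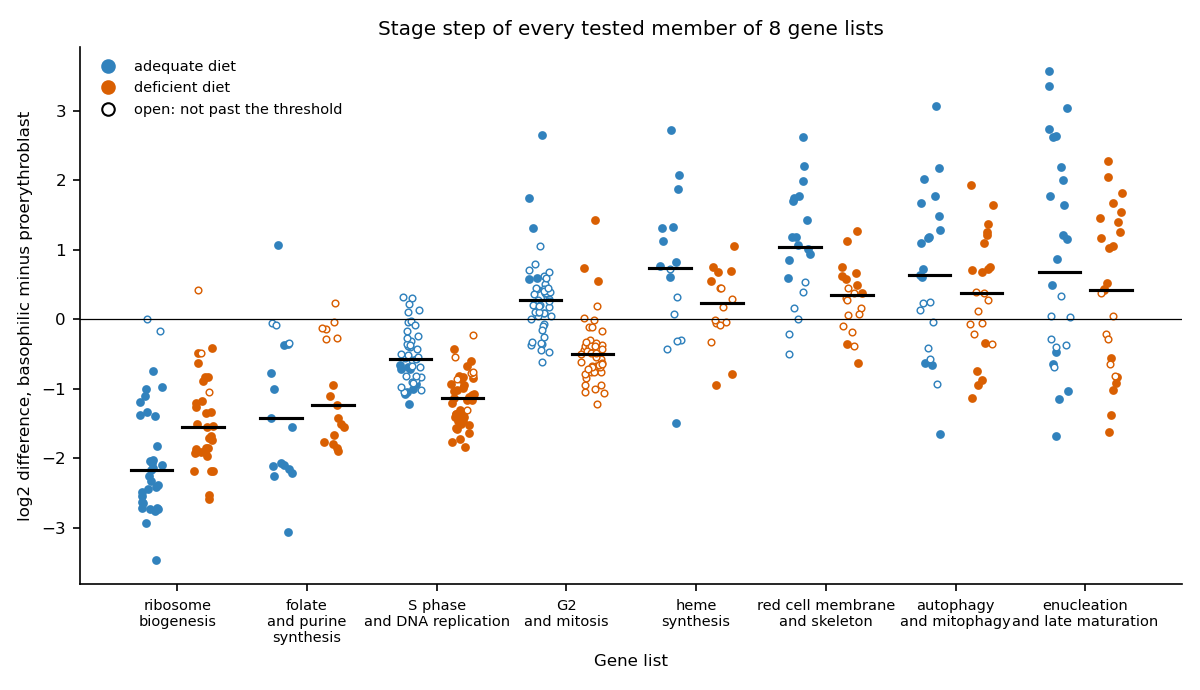
Log2 difference, basophilic minus proerythroblast, of each tested member of 8 gene lists on the adequate and the deficient diet, with open points for members not past the threshold. Ribosome biogenesis and S phase members lie almost wholly below 0 on the deficient diet, while heme, membrane and autophagy members lie on both sides.

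Stress and clearance genes had members with large rises. In the integrated stress response 8 of 21 rose and 6 fell, with 4 rises without proerythroblast replicate 1 or 3 and 5 without proerythroblast replicate 2 or adequate proerythroblast replicate 1 or 2. Eif2ak1, the heme-regulated eIF2 alpha kinase, read 11.03, 10.79 and 11.01 and then 11.88, 11.89 and 12.03, and rose by 0.99 (SE 0.13, adjusted p = 5.5e-04). Ppp1r15a, which reverses eIF2 alpha phosphorylation, read 10.66, 10.65 and 10.66 and then 11.67, 11.59 and 11.68, and rose by 0.99 (SE 0.16, adjusted p = 0.0014). Slc7a5, an amino acid transporter, rose by 1.04 (SE 0.18). Eif2ak4, the kinase that senses uncharged tRNA, fell by 1.09 (SE 0.18, adjusted p = 0.0016) and the serine synthesis enzyme Phgdh by 1.00 (SE 0.14). The 2 kinases of this list thus moved in opposite directions. The list held 4 rises and 5 falls without basophilic replicate 2, 3 rises and 6 falls under median centring and 7 rises and 3 falls under quantile normalization. Of 18 unfolded protein response genes 8 fell and 1 rose, with 5 falls without basophilic replicate 2 and 4 without proerythroblast replicate 1 or 3. Pdia3, a disulfide isomerase, fell by 1.26 (SE 0.31), Canx (calnexin) by 0.96 (SE 0.22), and Xbp1 rose by 0.74 (SE 0.21, adjusted p = 0.017, and 0.058 without proerythroblast replicate 2).

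Of 20 p53 targets 3 rose and 2 fell. Both falls were lost without basophilic replicate 2 or proerythroblast replicate 1, and 1 gene fell without proerythroblast replicate 2 or 3, adequate basophilic replicate 3 or any adequate proerythroblast array. Gadd45a, a growth arrest gene, read 9.92, 9.57 and 10.05 and then 10.97, 11.71 and 11.19, and rose by 1.44 (SE 0.19, adjusted p = 5.1e-04). In the BCL2 family 7 of 15 rose and 3 fell, 1 falling without proerythroblast replicate 3. Bnip3l, the mitophagy receptor NIX that clears mitochondria from reticulocytes, read 9.34, 9.05 and 9.40 and then 10.52, 10.80 and 10.57, and rose by 1.37 (SE 0.14, adjusted p = 1.6e-04). Bbc3, the death activator PUMA, rose by 0.66 (SE 0.15) and Bid, another activator, fell by 0.54 (SE 0.12).

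Autophagy genes rose in 10 of 23 cases and fell in 5 (median 0.38), and 9 of the rises were stable calls. The falls numbered 3 without basophilic replicate 2 and 1 without proerythroblast replicate 1 or 3. Atg4a, a protease that processes GABARAP proteins, read 9.10, 9.43 and 9.41 and then 10.67, 11.97 and 11.11, and rose by 1.94 (SE 0.28, adjusted p = 7.8e-04). Gabarapl2 rose by 1.65 (SE 0.23), Ulk1, the kinase that starts autophagy, by 1.25 (SE 0.19), the cargo receptor Sqstm1 by 1.21 (SE 0.27) and Map1lc3b by 1.10 (SE 0.13). The Atg4a arrays of the stages did not overlap, with basophilic replicate 2 the highest. Ulk2, a relative of Ulk1, fell by 0.74 (SE 0.14, adjusted p = 0.0036).

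Of 26 genes of enucleation and late maturation 14 rose and 6 fell (median 0.42), 11 and 3 of them stable calls. Beside Ube2o, the ubiquitin-conjugating enzymes Ube2h, Ube2l6 and Ube2r2 rose by 2.05 (SE 0.24), 1.46 (SE 0.20) and 1.40 (SE 0.19). Xpo7, a nuclear exporter that lets histones leave before nuclear condensation, read 10.53, 10.08 and 10.44 and then 12.09, 11.85 and 12.14, and rose by 1.68 (SE 0.24, adjusted p = 7.7e-04). Its lowest basophilic array was above its highest proerythroblast array by more than 1 log2 unit. Trim10, an erythroid ubiquitin ligase, rose by 1.55 (SE 0.24), and Ranbp10, a tubulin-binding protein, by 1.03 (SE 0.14). Hdac2, a histone deacetylase of nuclear condensation, fell by 1.63 (SE 0.30, adjusted p = 0.003) and Rac2, a GTPase of the contractile ring, by 1.37 (SE 0.35, adjusted p = 0.012). Without proerythroblast replicate 3, 12 rose and 3 fell, and without basophilic replicates 2 and 3, 11 rose and 2 fell.

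Interferon-induced genes rose in 13 of 25 cases and fell in 1, at a median of 0.46. Rsad2 (viperin) read 9.74, 9.47 and 10.07 and then 11.64, 12.26 and 11.93, and rose by 2.18 (SE 0.24, adjusted p = 2.0e-04). Oas3, an antiviral synthetase, read 7.61, 7.13 and 7.68 and then 9.11, 10.88 and 9.38, and rose by 2.32 (SE 0.38, adjusted p = 0.0016). Isg15, a ubiquitin-like modifier, read 5.90, 5.93 and 6.10 and then 7.24, 9.73 and 7.77, and rose by 2.27 (SE 0.47, adjusted p = 0.0056). All basophilic arrays exceeded all proerythroblast arrays for the 3 genes, with replicate 2 highest, by over 1 log2 unit for Oas3 and Isg15. Ifit1 and Irf7 rose by 1.77 (SE 0.22) and 1.33 (SE 0.28). Ifit2 went the other way, from 7.53, 7.18 and 7.34 to 5.72, 5.3 and 5.84, a fall of 1.73 (SE 0.18, adjusted p = 1.7e-04). Without basophilic replicate 2, 11 rose and 1 fell, without proerythroblast replicate 2 of the deficient or the adequate diet 2 fell, and under median centring 8 rose and 3 fell.

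Of 15 adhesion genes 3 rose and 4 fell, and without any 1 proerythroblast array 1 rose and 2 fell. Cd36, given above, read 8.39, 8.07 and 8.46 and then 9.99, 10.90 and 10.51. Cd44, the hyaluronan receptor whose loss marks erythroblast stages, fell by 1.05 (SE 0.19, adjusted p = 0.0028). The integrin subunit genes Itgb1 and Itga5 fell by 1.01 and 0.52. The Itgb1 call went to 0.051 without proerythroblast replicate 3, and that of Itga5 was lost without basophilic replicate 1 or 3 or proerythroblast replicate 1 or 2 (up to 0.072).

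Markers of other spleen cells also differed between the sorted stages. In bulk samples fewer cells of a type and less RNA per cell cannot be told apart. Neutrophil markers fell in 8 of 18 cases and rose in none, with a log2 summed level of 11.51 to 12.58 in proerythroblasts and 10.61 to 10.90 in basophilic erythroblasts. Ngp, a granule protein, read 10.13, 9.49 and 10.64 and then 8.02, 6.85 and 7.98, and fell by 2.47 (SE 0.52, adjusted p = 0.006). S100a8 fell by 2.64 (SE 0.79, adjusted p = 0.019), a call lost without basophilic replicate 2 or proerythroblast replicate 1 or 3 (up to 0.063), and Mpo fell by 1.57 (SE 0.36). Without proerythroblast replicate 1, 5 of the 18 fell, and without proerythroblast replicate 3, 3 did. Their part in the falls described above was not tested. Without basophilic replicates 2 and 3, 0 of the 18 passed in limma (5 at an unadjusted p under 0.05) and their median was -0.50, against -0.60 with all arrays.

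Stromal and endothelial markers rose in 9 of 10 tested cases, with 1 stable call, in 4 after scale normalization or median centring, in 3 without proerythroblast replicate 1 and in 1 without proerythroblast replicate 3. Their summed level was 9.37 to 9.43 in proerythroblasts and 9.68 to 10.35 in basophilic erythroblasts, in the dim range. Megakaryocyte markers rose in 5 of 7 tested cases (summed level 9.42 to 9.75, then 10.18 to 10.25). Macrophage markers rose in 3 of 16, with overlapping summed levels of 10.26 to 11.15 and 10.50 to 11.04, in 0 without basophilic replicate 2 or proerythroblast replicate 1 (1 and 0 at an unadjusted p under 0.05, limma), and in 1 without proerythroblast replicate 2 or 3, adequate basophilic replicate 3 or any adequate proerythroblast array. B cell markers had 1 rise and 1 fall among 10, with levels of 12.06 to 12.77 and 10.78 to 11.56, T and NK cell markers 1 rise among 11, with levels of 9.69 to 9.81 and 9.57 to 9.98, and mast cell and basophil markers 1 rise among 4, with levels of 8.60 to 8.76 and 8.78 to 9.47. Single arrays moved these small counts too: the B cell rise was lost without proerythroblast replicate 2 or 3, and 3 B cell markers fell without adequate proerythroblast replicate 3. The T and NK cell rise was lost without any deficient array but basophilic replicate 3, and 2 mast cell and basophil markers rose without basophilic replicate 1 or 3. Of the defining markers, Cpa3, Mcpt8 and Fcer1a of mast cells and basophils, Gzma of T and NK cells and Dcn of stroma stayed under the detection filter in every deficient array.

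The same step on the adequate diet gave 10910 called genes (54.2%), 5767 higher and 5143 lower. Of the rises on the deficient diet 72.9% were also rises on the adequate diet (79.1% of the latter), and of the falls 77.9% (76.0% of the latter). Over all genes tested 28.7% rose and 25.6% fell on the adequate diet. The steps share no arrays, but the fit pools the spread over all 12, and same-numbered arrays of a stage deviated together across the diets. The GC background features were also higher in the basophilic group on the adequate diet, 23 of 23, with a median difference of 0.44. The part of shared shifts in this overlap was not tested. Genes called in opposite directions numbered 5 (Zg16, Acsl6, Ascc2, Senp8 and Gm22061), and in none of them did the difference between the diets pass. Zg16, for example, rose by 0.76 on the deficient and fell by 0.91 on the adequate diet (interaction 1.67, adjusted p = 0.10). Large changes were fewer on the deficient diet, with 307 rises and 1961 falls of at least 2-fold against 650 and 2493 on the adequate diet.

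The difference between the steps was tested as the interaction of stage and diet, deficient minus adequate. It passed for 61 genes (0.303%), 32 positive (0.159%) and 29 negative (0.144%), and for 1842 genes at an unadjusted p under 0.05. The number was 282 without deficient basophilic replicate 2, 12 to 282 over the left-out arrays, and 700 without replicate 2 of both basophilic groups. Same-numbered arrays of the same stage deviated together across the diets (correlations of 0.180 to 0.782 over 6 pairs). With the number of each stage as a block shared by the diets, 589 genes passed, 304 positive and 285 negative, all 61 among them, and 542 of the 589 had the smaller step on the deficient diet. The 3 S phase genes that passed with this block were not among these 542. Calls held without each array in turn for 12 genes, 9 of which also held under the 7 alternative settings: Tmod1, Hbq1a, Hbq1b, Cdc25b, Gch1, Kit, Myb, Prelid2 and Sh2d4a. The other 3 were E2f2, Slc25a37 and Ptp4a3. The remaining interaction calls, those of Alas2, Fech and Slc4a1 included, were lost without at least 1 array.

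Nearly all of the 61 genes had the smaller step on the deficient diet. The 29 negative genes had a median step of 2.19 on the adequate and 0.75 on the deficient diet, and 28 of them moved less on the deficient diet. The 32 positive genes had medians of -1.94 and -0.64, and all 32 moved less on the deficient diet. Between diets the 29 genes differed by a median of 1.29 (deficient minus adequate) in proerythroblasts and 0.01 in basophilic erythroblasts, and the 32 genes by -1.16 and 0.05. These medians come from the same arrays as the interaction and are no separate test of it.

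**Figure D5:**
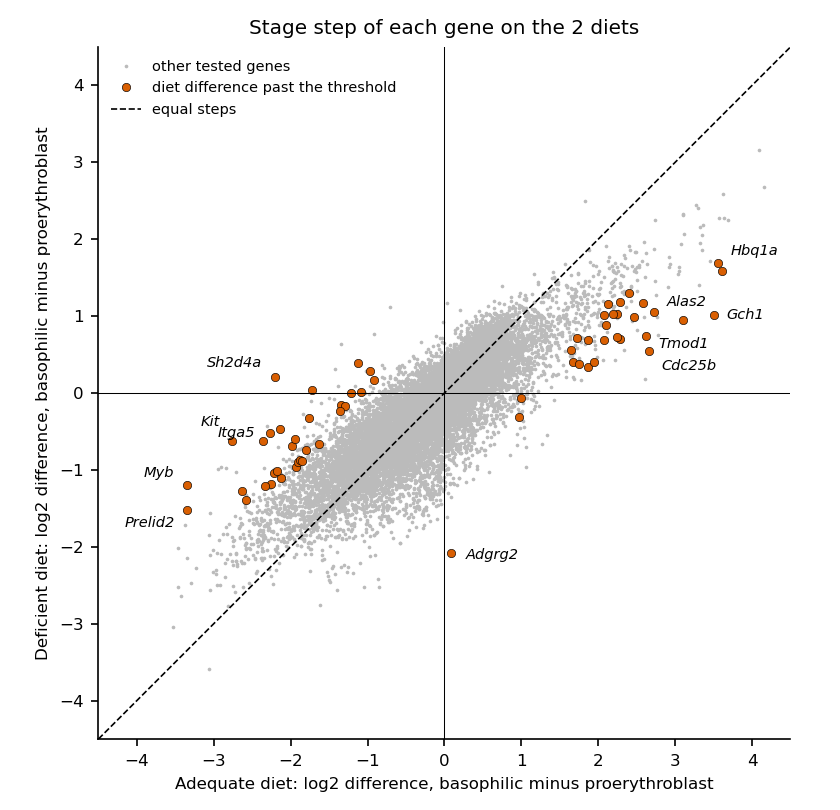
Log2 difference, basophilic minus proerythroblast, of each tested gene on the adequate (horizontal axis) and the deficient diet (vertical axis), with the 61 genes past the interaction threshold in orange. All but 1 of these lie nearer to 0 on the deficient than on the adequate axis.

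Erythroid genes made up part of the negative group. Tmod1 rose by 2.62 on the adequate and 0.75 on the deficient diet (interaction -1.88, adjusted p = 0.0022). Hbq1a rose by 3.56 and 1.69 (interaction -1.88, adjusted p = 0.0051). Alas2 rose by 2.73 and 1.06 (interaction -1.67, adjusted p = 0.036), Fech by 1.87 and 0.69 (interaction -1.18, adjusted p = 0.046), Slc25a37 by 2.08 and 0.68 (interaction -1.39, adjusted p = 0.0074) and Slc4a1 by 1.75 and 0.38 (interaction -1.37, adjusted p = 0.013). E2f2 rose by 2.28 and 0.70 (interaction -1.58, adjusted p = 0.0088), Mxd1 by 2.41 and 1.31, Ppp1r15a by 2.46 and 0.99, Ranbp10 by 2.19 and 1.03 and Cdc25b by 2.66 and 0.54. Gch1, the first enzyme of tetrahydrobiopterin synthesis, had the most negative difference among named genes: it read 8.51 to 8.83 and then 9.16 or more on the deficient diet, a rise of 1.01 against 3.5 on the adequate diet (interaction -2.49, adjusted p = 0.0059).

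Of 14 tested progenitor genes 3 passed, all positive, and the median over the list was 0.23 with 4 members below 0. Kit fell by 2.76 on the adequate and 0.62 on the deficient diet (interaction 2.13, adjusted p = 0.0051), and Myb by 3.35 and 1.20 (interaction 2.15, adjusted p = 0.0085). Sox4 fell by 0.91 on the adequate diet and differed by 0.16 on the deficient diet (interaction 1.08, adjusted p = 0.046). Other genes were also among the positive ones. Nfia fell by 2.64 and 1.27, Itga5 by 2.27 and 0.52, Utp15 of the small subunit processome by 2.33 and 1.21, and Prelid2 by 3.35 and 1.52. Sh2d4a fell by 2.21 on the adequate diet and read 5.75, 5.32 and 5.23 and then 5.52, 6.0 and 5.4 on the deficient diet, a difference of 0.21 (interaction 2.41, adjusted p = 0.0059) with overlapping stages. Pgd of the pentose phosphate pathway fell by 1.09 on the adequate diet and differed by 0.02 on the deficient diet (interaction 1.11, adjusted p = 0.03).

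The 1 gene with the larger step on the deficient diet was Adgrg2, an adhesion-type receptor. It read 6.91, 7.72 and 7.19 and then 5.10, 4.76 and 5.73, and fell by 2.08 (SE 0.24, adjusted p = 2.9e-04), while it differed by 0.09 on the adequate diet (interaction -2.16, adjusted p = 0.036).

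Of the 29 negative genes 20 had a promoter sequence, and 3 of these (15%) held the GATA-type letters and 13 (65.0%) the CACCC letters. Of 22 positive genes with one, 1 (4.55%) and 14 (63.6%) did, and of 12510 tested genes with one, 6.47% and 58.1% did.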

How the data were processed

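The deposited table holds log2 expression values of 12 arrays, made by the authors with Affymetrix Expression Console per the submitters' processing notes. Background correction, summarisation, normalization and genome build are not given in the sources used here. Median and spread differed between arrays, and the values were used as deposited. Of 72688 features 31258 named exactly 1 gene, 1492 several, 33206 none, and 6732 were controls. Older symbols were updated for 1789 features through RefSeq names. For 441 genes with several features the brightest on average was taken. Genes above the overall median value of 5.3 on 3 or more arrays entered the test, 20128 of 30702.

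Samples were grouped by title. Each gene was fitted with limma 3.58.1 (R 4.3.3) with a mean per group over all 4 groups and default eBayes. The stage step on each diet and their difference were tested two-sided, with Benjamini-Hochberg adjustment over all genes tested. An exact permutation test of 3 against 3 arrays cannot go below 0.1, so none was used. The fit was tested on simulated data. Tables were made with python 3.11.15 and pandas 2.3.3. Precision is limited by the 3 arrays per group.

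The comparison and the 39 gene lists were chosen with earlier results of these data known. Named genes are the 12 highest and 12 lowest differences with separated arrays, up to 6 members of each list with the smallest adjusted p, every tested heme, globin, selenoprotein and selenocysteine gene, 16 defining members, and the 6 highest and 6 lowest interactions. Predicted symbols were left out, and a part of the genes so chosen was printed. Stable calls are those that held under quantile normalization, median centring, scale normalization, trended variance, robust variance, a fixed and a random block for replicate number, and without each array in turn.

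Other alternatives were no filter, a stricter filter (6.62), array weights, averaging a gene's features, testing features singly, the arrays of the contrast only, and other thresholds. The replicate numbers recur in every group. Deviations of same-numbered arrays from their group means correlated at 0.097 to 0.254 between the deficient stages and -0.165 to 0.207 between the adequate ones, so the numbers were not taken to pair stages. Between diets within a stage all 6 pairs correlated at over 0.1 (0.180 to 0.782), so an interaction fit with a block of number within stage was added after seeing the data. Promoters were matched by symbol for 12510 tested genes.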

Additional observations from a re-analysis of the deposited data

Results flagged for a closer look

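The step differed between the diets, by the interaction test in limma, for 61 genes. In units of log2 and as the deficient minus the adequate step, the named genes with a negative difference were Gch1 (-2.49), Adgrg2 (-2.16), Cdc25b (-2.11), Hbq1b (-2.03), Hbq1a (-1.88), Tmod1 (-1.88), Alas2 (-1.67), E2f2 (-1.58), Ptp4a3 (-1.52), Ppp1r15a (-1.47), Slc25a37 (-1.39), Slc4a1 (-1.37), Fech (-1.18), Ranbp10 (-1.16) and Mxd1 (-1.10). Those with a positive difference were Sh2d4a (2.41), Myb (2.15), Kit (2.13), Prelid2 (1.83), Itga5 (1.76), Nfia (1.36), Utp15 (1.12), Pgd (1.11) and Sox4 (1.08).

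Features outside the gene comparisons also carried the step. Of 14653 tested features that name no gene 5631 were called, 3932 higher and 1699 lower, and of 934 that name several genes 454 were called, 177 higher and 277 lower. Among the latter the feature of the erythroid microRNAs Mir144 and Mir451a differed by 0.63 at an adjusted p of 0.093 on the deficient diet, below the threshold, and by 1.34 on the adequate diet.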

How the results depend on the processing

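The 11270 calls of the deficient step became 6352 with the stricter filter, which tests fewer genes, 2918 in a fit of its 6 arrays alone, 6880 and 2268 with a 1.5-fold and a 2-fold minimum, 3049 without deficient basophilic replicates 2 and 3 (chosen after seeing the data), and 4952 to 12415 with arrays left out in turn. The adequate step (10910) gave 6696 with the stricter filter, 6530 and 7209 after quantile and scale normalization, 6539 and 3143 with the fold minimums, and 5613 to 14336 with arrays left out. The interaction (61) gave 38 without a filter, 23 and 18 after quantile and scale normalization, 482 with array weights, whose fit stopped before converging, 174 at an adjusted p of 0.1, 700 without replicate 2 of both basophilic groups (chosen after seeing the data), and 12 to 282 with arrays left out, the cause not being tested. With the replicate number as a block the deficient step had 12622 calls, the adequate step 12297 and the interaction 64, as a random block 12759, 12476 and 186, and with the number of each stage as a block shared by the diets (chosen after seeing the data) the interaction had 589. No alternative not listed here moved these counts by more than 1.5 times. Of 18 same-numbered pairs across all groups 12 correlations passed 0.1, all 6 between diets within a stage among them.

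Signs turned only in named genes that were not called. Alad (-0.05) was 0.21, 0.29 and 0.21 under quantile and scale normalization and array weights, 0.39 and 0.45 without basophilic replicates 2 and without deficient replicates 2 and 3, and -0.30 to 0.39 with arrays left out. Klf1 (-0.15) was 0.17, 0.0021 and 0.071 in the same settings, 0.23 and 0.31, and -0.38 to 0.23 with arrays left out. Pgd (0.02) was -0.22 under median centring, -0.015 under scale normalization, -0.0017 with array weights and -0.042 to 0.088 with arrays left out. Plk1 (-0.65) was 0.0033 and 0.043 without those replicates and from -0.997 to 0.0033 with arrays left out. Selenow (0.06) was -0.18 under median centring, -0.017 without deficient basophilic replicates 2 and 3 and -0.10 to 0.15 with arrays left out. Median centring gave -0.11 for Gata1, -0.033 for Sh2d4a (-4.1e-04 under scale normalization), -0.077 for Sox4 (-0.0014 under scale normalization, -0.027 with array weights) and -0.097 for Tal1 (-0.055 to 0.46 with arrays left out).

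No called stage effect or interaction named in the text changed sign under any alternative run. Signal over background limits dim genes, and the number of arrays limits all.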
